A study of Homo sapiens with 15 samples.

Results

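RNA of 8 genes for adhesion molecules with which endothelial cells catch leukocytes and let them pass was followed over all 15 arrays of the series: SELE, SELP, VCAM1, ICAM1, ICAM2, PECAM1, JAM2 and JAM3. The genes were chosen by name, with earlier results of these data known. Each took its probeset with exactly 1 symbol in the platform annotation and the highest mean over the arrays, and all 8 were found among 18417 genes measured. Human umbilical vein endothelial cells (HUVEC), labelled a cell line by the submitters, were left untreated, or kept for 6 h in EGM2 medium with exosomes of Jurkat T leukaemia cells (JK exosomes) or of JINB8, a Jurkat mutant deficient in the surface receptor CD47. The RNA of JK exosomes and of JINB8 exosomes was measured too, which makes 5 groups of 3 arrays. The mutant is 1 line, exosomes were precipitated from conditioned medium that held human serum, and no HUVEC given the precipitation reagent alone were analysed here. Whether the 3 arrays of a group come from separate cultures is not stated, so p-values here reflect only the scatter among arrays, part of which may be technical.

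A leukocyte leaves the blood in steps, each with its own endothelial molecules. E-selectin (SELE) and P-selectin (SELP) bind sugars on the leukocyte so that it rolls. VCAM1, ICAM1 and ICAM2 bind leukocyte integrins and hold it fast, and PECAM1, JAM2 and JAM3, which sit at the junctions between endothelial cells, take part in its passage. Resting endothelium carries ICAM2, PECAM1 and the JAM proteins and stores P-selectin protein in Weibel-Palade bodies, while SELE, VCAM1 and much of ICAM1 are made after inflammatory cytokines act through NF-kB.

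Promoter sequence is shown for SELE, VCAM1, ICAM1 and SELP, the 4 of the 8 genes that the RefSeq table used (GRCh38.p14) held. SELE, VCAM1 and ICAM1 were the members whose RNA was lowest relative to untreated cells in both treated groups. SELP stood the other way on the normalized scale. No promoter of ICAM2, PECAM1, JAM2 or JAM3 was searched, so fallen and risen members cannot be compared by these letters. Each line gives the 250 bases before the annotated start, 5′ to 3′ on the gene's own strand. Capitals mark matches on either strand to 3 short patterns chosen with these sequences in view, which are NF-kB-type GGGNTTNCC and GGANATTCC (N is any base) and the TATA box letters TATAAA, where overlapping matches run together.
SELE promoter, chr1:169734080-169734329, minus strand: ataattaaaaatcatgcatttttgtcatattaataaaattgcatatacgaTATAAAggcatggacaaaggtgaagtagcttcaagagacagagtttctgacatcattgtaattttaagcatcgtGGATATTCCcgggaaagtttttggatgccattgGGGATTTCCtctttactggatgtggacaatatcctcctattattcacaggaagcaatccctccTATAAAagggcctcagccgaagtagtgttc
VCAM1 promoter, chr1:100719492-100719741, plus strand: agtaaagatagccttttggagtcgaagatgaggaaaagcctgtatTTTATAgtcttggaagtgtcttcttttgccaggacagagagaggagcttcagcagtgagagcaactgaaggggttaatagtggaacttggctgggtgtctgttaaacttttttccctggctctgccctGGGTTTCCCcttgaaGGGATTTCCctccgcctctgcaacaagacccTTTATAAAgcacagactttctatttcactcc
ICAM1 promoter, chr19:10270870-10271119, plus strand: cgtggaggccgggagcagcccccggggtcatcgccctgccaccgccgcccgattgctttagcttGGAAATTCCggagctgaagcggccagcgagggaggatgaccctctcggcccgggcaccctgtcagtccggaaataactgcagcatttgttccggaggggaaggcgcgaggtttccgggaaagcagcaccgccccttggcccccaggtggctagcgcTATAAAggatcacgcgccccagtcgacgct
SELP promoter, chr1:169630125-169630374, minus strand: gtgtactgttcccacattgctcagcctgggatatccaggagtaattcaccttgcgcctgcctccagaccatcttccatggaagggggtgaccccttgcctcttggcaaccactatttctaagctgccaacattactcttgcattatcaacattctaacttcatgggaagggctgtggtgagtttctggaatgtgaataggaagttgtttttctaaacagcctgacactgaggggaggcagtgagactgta
SELE held 1 match to GGGNTTNCC, 1 to GGANATTCC and 2 to TATAAA. VCAM1 held 2 matches to GGGNTTNCC and 3 to TATAAA, and ICAM1 held 1 to GGANATTCC and 1 to TATAAA. In the SELP window these letters were not found, and other NF-kB-type letters were not searched. Of 35116 RefSeq promoter windows of the same length 4.7% held GGGNTTNCC, 0.911% GGANATTCC and 10.7% TATAAA, and 0.387% held either NF-kB-type pattern together with TATAAA. Because the patterns were chosen with these sequences in view, these shares carry no test. A match describes letters only, and binding was not measured.

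The deposited values are log2 signals, and the arrays did not share a level. Array medians over all probesets lay between 6.91 and 7.03 in untreated HUVEC and between 5.08 and 5.18 in the other 4 groups. As deposited the median gene was lower in treated cells (log2 change -1.68 with JK and -1.71 with JINB8 exosomes). A kept place among the genes did not always mean that change. PECAM1 kept the percentile 99.6 to 99.9 on all 9 HUVEC arrays with deposited changes of -0.71 and -0.69. Values against untreated cells are therefore given after quantile normalization of the 9 HUVEC arrays, which makes them relative to that shift, with the deposited change beside them. Because every untreated array stands on the other level, an effect of the arrays and one of the exosomes cannot be told apart. In RNA of whole cultures, fewer cells that carry a transcript and less of it per cell cannot be told apart either.

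**Figure D1:**
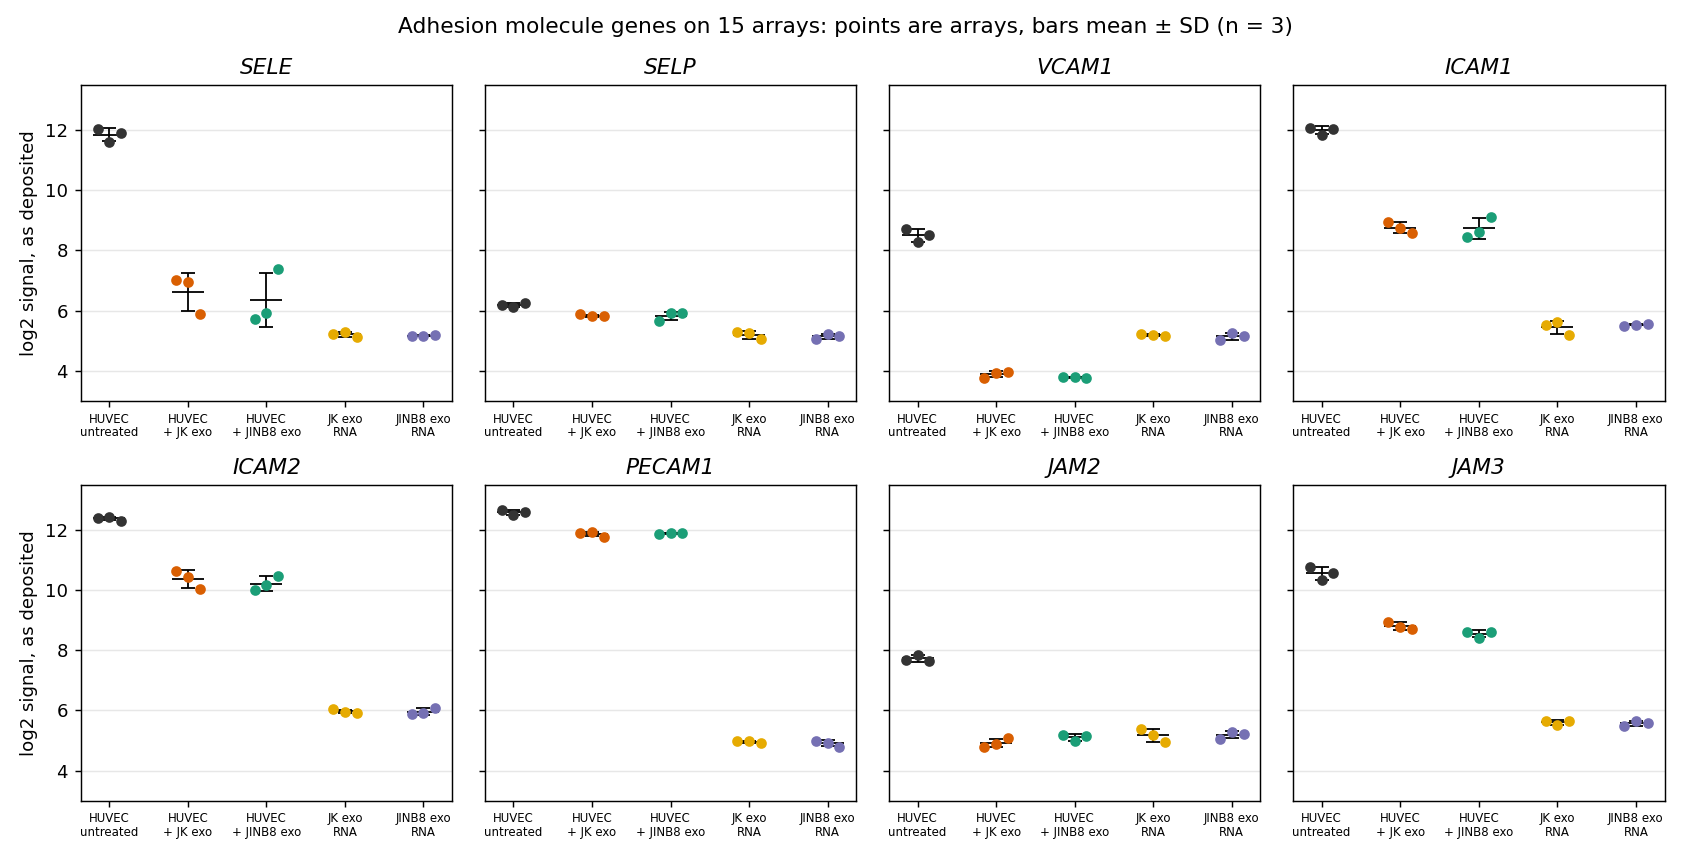
Deposited log2 signal (vertical axis) of the 8 genes on each of 15 arrays, by group (horizontal axis). Points are arrays, and horizontal bars with whiskers are means ± SD (n = 3). SELE lies between 11.62 and 12.04 in untreated HUVEC and between 5.73 and 7.39 in treated HUVEC, and VCAM1 in treated HUVEC lies below its own signal in exosome RNA.

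Of the selectins, SELE had the largest difference of the 8 genes. Its deposited log2 signals were 12.04, 11.62 and 11.90 in untreated HUVEC. They were 7.01, 6.94 and 5.87 with JK exosomes, and 5.73, 5.92 and 7.39 with JINB8 exosomes. No treated array came near an untreated one, but the treated arrays were spread over 1.65 log2 units. Relative to the array-wide shift SELE fell 14.4-fold with JK exosomes (log2 fold change -3.85 ± 0.37, SE, n = 3 per group, limma adjusted p = 9.35e-06), the change of rank 10 from the lowest among 18417 genes. With JINB8 exosomes it fell 16.8-fold (-4.07 ± 0.37, adjusted p = 5.88e-06), at rank 6. The deposited changes were -5.24 and -5.50. SELE stood at the percentile 98.4 to 98.9 of all genes in untreated cells and at 52.5 to 77.0 in treated cells. The fall is thus one from a high untreated signal, and whether the untreated cells were at rest was not tested.

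SELP, the gene of the selectin that is stored ready-made, behaved otherwise. Its signals were 6.19, 6.12 and 6.26 in untreated cells, 5.87, 5.82 and 5.81 with JK exosomes and 5.66, 5.91 and 5.91 with JINB8 exosomes. As deposited these values were lower in every treated array, by less than the median gene (log2 change -0.36 and -0.37). Relative to the shift SELP rose 2.88-fold with JK exosomes (1.53 ± 0.09, adjusted p = 2.72e-07) and 2.97-fold with JINB8 exosomes (1.57 ± 0.09, adjusted p = 2.09e-07), so its direction depends on the scaling. On each array's own scale SELP moved from the percentile 24.8 to 27.8 of all genes in untreated cells to 51.2 to 55.5 in treated cells. Its untreated signal was therefore among the low ones of those arrays, and without detection calls it could not be set against background.

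VCAM1, the ligand of the integrin made of ITGA4 and ITGB1, had signals of 8.70, 8.28 and 8.52 in untreated HUVEC. With JK exosomes they were 3.77, 3.92 and 3.95, and with JINB8 exosomes 3.81, 3.79 and 3.77. The groups were far apart and the treated arrays within 0.19 of each other. VCAM1 fell 7.39-fold with JK exosomes (-2.88 ± 0.10, adjusted p = 5.21e-09) and 7.87-fold with JINB8 exosomes (-2.98 ± 0.10, adjusted p = 5.16e-09). In treated cells it stood at the percentile 18.4 to 21.0, below the mean percentile of 12 T cell markers on the same arrays (23.9 to 25.7), so the size of its fall is uncertain.

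ICAM1, which binds the integrins LFA-1 and Mac-1, kept a high signal while falling. Untreated arrays read 12.08, 11.84 and 12.05, arrays with JK exosomes 8.95, 8.75 and 8.58, and arrays with JINB8 exosomes 8.46, 8.62 and 9.11. The fall was 3.72-fold (-1.90 ± 0.15, adjusted p = 2.65e-06) and 3.86-fold (-1.95 ± 0.15, adjusted p = 1.93e-06). ICAM1 remained at the percentile 89.3 to 93.9 in treated cells, from 98.8 to 99.1 in untreated cells.

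ICAM2, the related molecule that resting endothelium makes, had signals of 12.39, 12.43 and 12.31 in untreated cells. With JK exosomes they were 10.65, 10.43 and 10.04, and with JINB8 exosomes 9.99, 10.18 and 10.47. It fell by less than ICAM1, with a log2 fold change of -0.79 ± 0.15 for JK (adjusted p = 0.00142) and of -0.98 ± 0.15 for JINB8 (adjusted p = 0.000319). Median centring of the arrays in place of quantile normalization ended both calls (log2 fold change -0.22, adjusted p = 0.211, and -0.33, adjusted p = 0.0659).

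Among the junction molecules PECAM1 had the smallest deposited change. Its signals were 12.65, 12.48 and 12.61 in untreated cells, 11.88, 11.93 and 11.78 with JK exosomes, and 11.87, 11.90 and 11.90 with JINB8 exosomes. Relative to the shift it rose by 0.35 ± 0.08 (adjusted p = 0.00297) and 0.37 ± 0.08 (adjusted p = 0.00183) on the log2 scale, but the deposited changes were -0.71 and -0.69, and median centring gave 1.07 and 1.15. It kept a percentile of 99.6 to 99.9 on all 9 HUVEC arrays, close to the top of the range. A second PECAM1 probeset, dimmer than the first, read 6.75, 6.85 and 6.92 in untreated cells. It read 7.53, 7.44 and 7.01 with JK exosomes and 6.75, 6.98 and 7.18 with JINB8 exosomes. That probeset was higher even as deposited, by 0.48 and 0.13, and by 2.25 ± 0.14 and 1.92 ± 0.14 after quantile normalization over all probesets (adjusted p = 6.53e-06 and 1.37e-05). The 2 probesets thus differ in sign as deposited, and the size of the PECAM1 change is uncertain.

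JAM2 and JAM3, which bind each other and leukocyte integrins, both fell. JAM2 read 7.69, 7.85 and 7.63 in untreated cells, 4.79, 4.87 and 5.07 with JK exosomes, and 5.20, 4.98 and 5.14 with JINB8 exosomes. It fell 2.04-fold (-1.03 ± 0.10, adjusted p = 1.15e-05) and 1.74-fold (-0.80 ± 0.10, adjusted p = 6.54e-05). JAM3 read 10.77, 10.34 and 10.55 in untreated cells, 8.93, 8.78 and 8.69 with JK exosomes, and 8.62, 8.42 and 8.60 with JINB8 exosomes. Its fall was the smallest of the 6, at -0.31 ± 0.11 (adjusted p = 0.0311) and -0.57 ± 0.11 (adjusted p = 0.000908). The call with JK exosomes was lost when any 1 of untreated replicate 1 or 3 or JK replicate 2 or 3 was left out (adjusted p of 0.0627 to 0.106), and with median centring the value was 0.0318 (adjusted p = 0.834). With JINB8 exosomes median centring left -0.17 (adjusted p = 0.222).

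**Figure D2:**
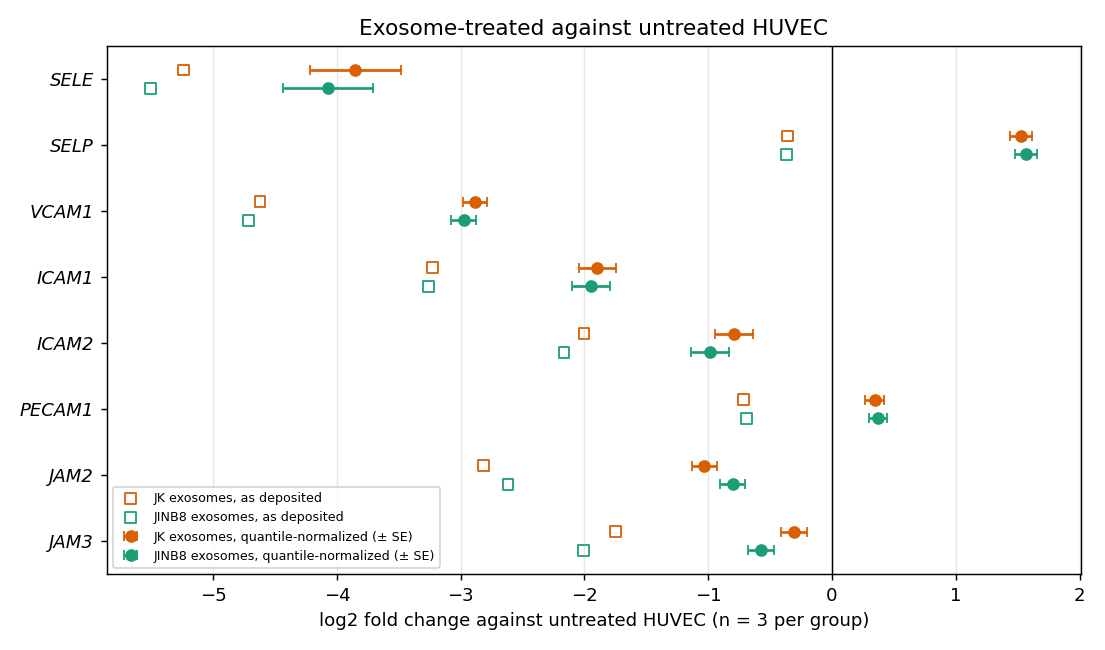
Log2 fold change of each gene against untreated HUVEC (horizontal axis; n = 3 per group) for both exosome treatments. Filled points are quantile-normalized values with limma's SE, and open squares are changes as deposited. SELE, VCAM1 and ICAM1 are lowest on the normalized scale, between -4.07 and -1.90, and SELP and PECAM1 lie on different sides of 0 on the 2 scales.

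Counted together, 6 of the 8 genes fell and 2 rose in each comparison with untreated cells, and all 8 had groups that did not overlap. In the comparison with JK exosomes 48.6% of all genes passed (22.4% lower and 26.2% higher), and in that with JINB8 exosomes 49.3% did (23.3% lower and 26.0% higher), so passing is common on these arrays. Falls of at least 2-fold were rarer: 3.45% of all genes with JK exosomes, against 4 of the 8, and 3.52% with JINB8 exosomes, against 3 of the 8. The 8 were chosen with earlier results of these data known, so these counts describe them and do not test an excess. Groups did not overlap and were lower for 25.9% and 27.1% of all genes and higher for 30.2% and 30.5%. The median log2 fold change of the 8 was -0.91 with JK and -0.89 with JINB8 exosomes, beside 0.02 over all genes in both. As deposited all 8 were lower (medians of -2.41 and -2.39), as were 99.3% of all genes with JK and 99.1% with JINB8 exosomes, so that count equals the background. With median centring 4 were lower and 2 higher in each. On that scale 19.5% of all genes were lower and 35.1% higher with JK and 18.7% and 38.1% with JINB8 exosomes, at medians of 0.10 and 0.13. Both comparisons use the same 3 untreated arrays, so their likeness is not independent.

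The neighbours of these genes in the adhesion step were read on the same normalized scale, from lists written by function with earlier results of these data known. The background for each list on that scale is 22.4% of all genes lower and 26.2% higher with JK exosomes. With JINB8 exosomes it is 23.3% and 26.0%. Of 21 other endothelial adhesion and junction molecules 10 fell and 3 rose with JK exosomes (median log2 fold change -0.26), and 10 fell and 2 rose with JINB8 exosomes (median -0.23). The sialomucins CD34 and PODXL, which can carry selectin ligands, changed by -4.67 ± 0.11 and -1.34 ± 0.08 with JK exosomes and by -4.38 ± 0.11 and -1.13 ± 0.08 with JINB8 exosomes. CD44, a hyaluronan receptor, changed by -2.76 ± 0.11 and -2.77 ± 0.11, and the junctional molecule MCAM by -0.71 ± 0.08 and -0.72 ± 0.08. CD99L2, which acts in leukocyte passage, rose by 0.38 ± 0.10 and 0.47 ± 0.10. EMCN, endomucin, rose by 0.76 ± 0.26 with JINB8 exosomes. With median centring 5 were lower and 5 higher with JK exosomes, beside 19.5% and 35.1% of all genes, and 6 and 4 with JINB8 exosomes, beside 18.7% and 38.1%. As deposited all 21 were lower in both, which is the background of 99.3% and 99.1%.

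Of 20 genes that control adhesion molecule transcription 12 fell and 4 rose with JK exosomes (median -0.48), and 9 fell and 3 rose with JINB8 exosomes (median -0.26). RELA, the NF-kB subunit that activates SELE, VCAM1 and ICAM1, changed by -0.81 ± 0.08 and -0.76 ± 0.08. ETS1 and CEBPB, both transcription factors, changed by -1.08 ± 0.10 and -0.88 ± 0.09 with JK exosomes and by -1.27 ± 0.10 and -0.79 ± 0.09 with JINB8 exosomes. NFKBIE, an NF-kB inhibitor, changed by -0.71 ± 0.10 with JK exosomes. ERG, a factor that restrains endothelial inflammatory genes, rose by 0.61 ± 0.10 and 0.87 ± 0.10, ATF2 by 0.43 ± 0.08 and 0.45 ± 0.08 and IRF1 by 0.37 ± 0.11 and 0.31 ± 0.11. With median centring 10 fell and 6 rose with JK exosomes, beside 19.5% and 35.1% of all genes, and 8 and 6 with JINB8 exosomes, beside 18.7% and 38.1%, where the median came to 0.00 for JINB8. As deposited all 20 were lower, as were nearly all genes.

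Cytokine receptors and their adaptors were split. Of 15 genes 5 rose and 5 fell with JK exosomes (median -0.09), and 4 rose and 7 fell with JINB8 exosomes (median -0.19). The adaptor TRAF1 changed by -2.09 ± 0.10 and -2.40 ± 0.10, IL1R1 by -0.67 ± 0.18 with JK exosomes and IL4R by -1.10 ± 0.22 with JINB8 exosomes. The oncostatin M receptor OSMR rose by 1.29 ± 0.12 with JK and 1.4998 ± 0.12 with JINB8 exosomes. IL1RAP, the partner chain of the interleukin 1 receptor, rose by 0.70 ± 0.11 and 0.67 ± 0.11 and the endotoxin receptor TLR4 by 0.74 ± 0.18 and 0.97 ± 0.18. With median centring 6 rose and 3 fell in each, beside 35.1% higher and 19.5% lower of all genes with JK and 38.1% and 18.7% with JINB8 exosomes. As deposited 14 of the 15 were lower with JK and 13 with JINB8 exosomes, as were nearly all genes.

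The cytoplasmic partners of ICAM1 and VCAM1, which link them to actin, did not lean one way on the normalized scale: of 13 genes 2 rose and 4 fell with JK exosomes and 4 rose and 5 fell with JINB8 exosomes (medians of -0.03 and 0.01). With median centring 10 rose and 2 fell with JK exosomes, beside 35.1% and 19.5% of all genes, and 11 and 2 with JINB8 exosomes, beside 38.1% and 18.7%. As deposited all 13 were lower, as were nearly all genes. VCL, vinculin, changed by -1.44 ± 0.07 and -1.59 ± 0.07, while RDX, radixin, which anchors ICAM proteins, rose by 0.77 ± 0.09 and 0.83 ± 0.09. Of 13 genes of Weibel-Palade bodies, the stores of P-selectin, 4 rose and 5 fell with JK exosomes and 5 rose and 5 fell with JINB8 exosomes (medians of 0.05 and 0.11). MYRIP, which tethers these granules, rose by 0.72 ± 0.10 and 0.73 ± 0.10. The cytokine CXCL8 changed by -3.18 ± 0.14 and -3.08 ± 0.14. With median centring 8 rose and 2 fell with JK and 7 and 2 with JINB8 exosomes, beside the same shares of all genes, and all 13 were lower as deposited, as were nearly all genes.

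Markers of cell types were checked beside these changes. The gene lists also hold 6 of the 12 endothelial markers, 1 T cell marker (CD2) and 1 monocyte marker (ITGAM). All 12 endothelial markers stood above the median gene in each HUVEC group, with a mean percentile of 92.1 to 93.0 in untreated, 91.0 to 92.6 in JK-treated and 90.8 to 92.5 in JINB8-treated cells. Of these, 2 rose and 2 fell with JK exosomes and 3 rose and 3 fell with JINB8 exosomes. The 12 T cell markers had a mean percentile of 25.2 to 26.4 in untreated cells, 24.5 to 25.0 with JK and 23.9 to 25.7 with JINB8 exosomes. Mural cell and fibroblast markers stood at 39.5 to 41.3 in untreated cells and at 40.8 to 42.0 in treated cells, and platelet markers at 23.1 to 24.6 and 24.7 to 27.7. Monocyte markers went from 29.6 to 30.8 in untreated cells to 25.7 to 26.9 in treated cells, and 4 of the 6 fell with JK and 2 with JINB8 exosomes. Of the 12 T cell markers 3 fell in each comparison, and 1 rose with JK and 0 with JINB8 exosomes. Of the 10 mural cell and fibroblast markers 2 rose and 2 fell in each. Of the 6 platelet markers 2 rose with JK and 3 with JINB8 exosomes, and 0 fell. Beside these marker counts, 22.4% of all genes fell and 26.2% rose with JK exosomes, and 23.3% and 26.0% with JINB8 exosomes. The part of any of these shifts in the changes of the adhesion genes was not tested.

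The next question was whether CD47 on the exosome donor made a difference, by setting JINB8-treated against JK-treated HUVEC on the deposited values, where both groups share an array level. None of the 8 genes passed (0 of 8 in limma, 1 with an unadjusted p under 0.05), and neither did any of the 18417 genes (0 passed, 0% of all genes, and 1678 or 9.11% had an unadjusted p under 0.05). JAM3 had the unadjusted p under 0.05, with a log2 fold change of -0.26 (95% interval -0.51 to -0.00181, adjusted p = 0.542) and JINB8 arrays all below JK arrays. Groups did not overlap and were lower for 9.78% of all genes. JAM2 stood at 0.20 (-0.03 to 0.42).

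The interval was widest for SELE, at -0.26 (-1.07 to 0.54). That value rests on single arrays, since it was -0.78 without JINB8 replicate 3, -0.63 without JK replicate 3, between -0.10 and -0.05 without JK replicate 1 or 2 or JINB8 replicate 2, and 0.05 without JINB8 replicate 1, with no call in any of these. It was -0.49 to 0.16 for ICAM2, -0.36 to 0.30 for ICAM1, -0.33 to 0.15 for VCAM1, -0.22 to 0.20 for SELP and -0.17 to 0.22 for PECAM1. A p above the threshold does not show that the exosomes acted alike. Of the 8 lists of neighbouring genes, 0 had a member that passed in limma.

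Within the treated groups the arrays varied together for some of the genes. The 3 highest of the 6 treated arrays for SELE were JK replicates 1 and 2 and JINB8 replicate 3, and this set was then looked for in the other genes. It also led for ICAM1, ICAM2 and the second PECAM1 probeset. Other sets led for SELP, VCAM1, JAM2, JAM3 and the first PECAM1 probeset. The range over the 6 arrays was 1.65 for SELE, 0.65 for ICAM1, 0.66 for ICAM2 and 0.78 for the second PECAM1 probeset. It was 0.52 for JAM3, 0.40 for JAM2, 0.25 for SELP, 0.19 for VCAM1 and 0.15 for the first PECAM1 probeset. SELE ranked 31 of 18417 genes by this range. The same 3 arrays led for 12.1% of all genes, where 20 sets of 3 are possible, and were the 3 lowest for 1988 genes. This split crosses both exosome groups, and its source was not tested.

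**Figure D3:**
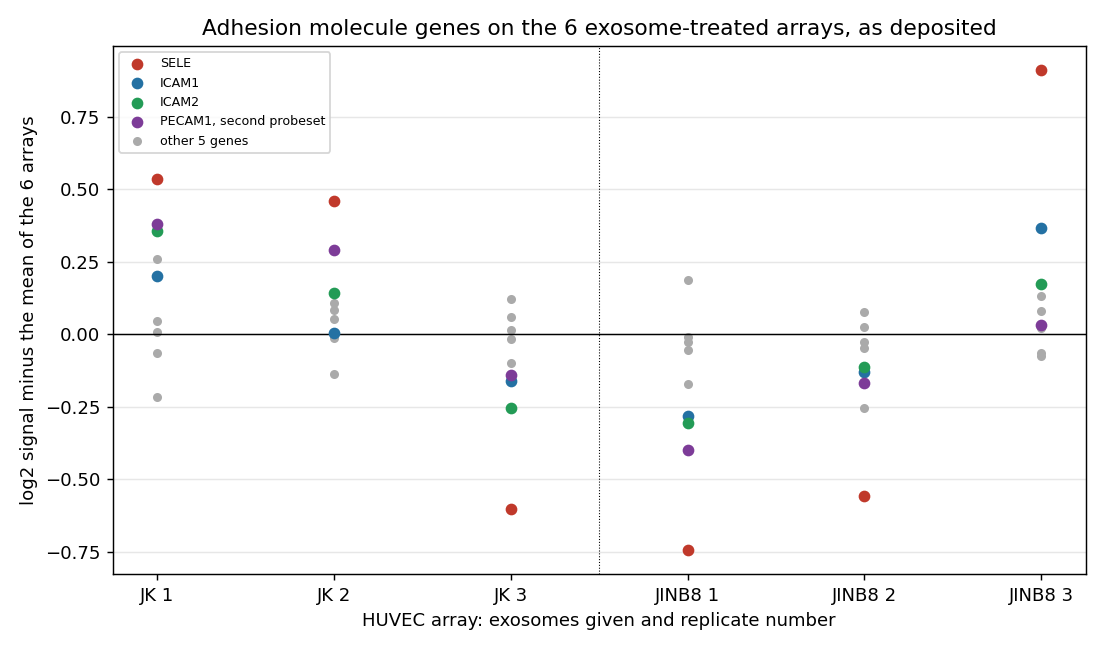
Log2 signal minus the mean of the 6 exosome-treated arrays (vertical axis) on each of those arrays (horizontal axis: exosomes and replicate number). Coloured points are SELE, ICAM1, ICAM2 and the second PECAM1 probeset, and grey points are the other 5 probesets. The coloured points are higher on JK 1, JK 2 and JINB8 3 than on the other 3 arrays.

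In exosome RNA the deposited signals of the 8 genes lay between 4.80 and 6.08 over the 6 arrays. ICAM2 stood at the percentile 74.1 to 81.5 and the other 7 genes at 37.0 to 68.5. On the same arrays the 12 endothelial markers had a mean percentile of 50.2 to 53.0, mural cell markers 48.0 to 49.6, monocyte markers 48.6 to 50.2, platelet markers 53.1 to 55.2 and T cell markers 67.9 to 71.6. PECAM1 read 4.98, 4.97 and 4.90 in JK and 4.997, 4.92 and 4.80 in JINB8 exosome RNA. ICAM2 read 6.03, 5.94 and 5.92, and 5.87, 5.93 and 6.08. Without detection calls no signal here can be told from background.

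Set against the HUVEC kept with the same exosomes, 6 of the 8 genes were lower and 2 higher in JK exosome RNA, and 6 were lower and 1 higher in JINB8 exosome RNA. Over all genes 92.8% passed for JK (49.2% lower and 43.6% higher) and 92.5% for JINB8 (48.3% lower and 44.2% higher), so passing is the rule in these comparisons. The exosome arrays also had a narrower spread over genes, with an SD of 1.03 to 1.07 against 1.97 to 2.01 in treated HUVEC. Of the 8 genes 5 were at least 2-fold lower in each, as were 39.0% of all genes for JK and 38.5% for JINB8. PECAM1 had the largest difference, at -6.91 ± 0.08 for JK and -6.98 ± 0.08 for JINB8 (adjusted p = 5.38e-19 and 4.61e-19). ICAM2 stood at -4.41 ± 0.14 and -4.25 ± 0.14, ICAM1 at -3.31 ± 0.15 and -3.20 ± 0.15, and JAM3 at -3.20 ± 0.09 and -2.97 ± 0.09. With cyclic loess these stayed lower but shrank, to -2.87 and -3.13 for PECAM1, -0.62 in both for ICAM2, -0.69 and -0.62 for ICAM1 and -0.56 and -0.38 for JAM3. SELE stood at -1.40 ± 0.33 and -1.18 ± 0.33 (adjusted p = 0.000867 and 0.00336). Cyclic loess ended both SELE calls (-0.67, adjusted p = 0.0648, and -0.50, adjusted p = 0.161). SELP stood at -0.64 ± 0.09 and -0.68 ± 0.09, of which quantile normalization over the 12 arrays ended the JK call (-0.14, adjusted p = 0.191).

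VCAM1 was the only member that passed as higher for both lines. Its signals were 5.22, 5.20 and 5.16 in JK and 5.03, 5.24 and 5.15 in JINB8 exosome RNA. They were above those of the treated cells by 1.32 ± 0.08 and 1.36 ± 0.08 (limma adjusted p = 6.55e-11 and 4.43e-11). Its exosome percentile was 44.0 to 51.5, beside a low 18.4 to 21.0 in the treated cells, so the size of this difference is uncertain too. With cyclic loess the differences were 0.61 and 0.65. In the same comparisons the median was 1.44 in both for T cell markers, 1.20 in both for platelet markers, 0.98 and 1.02 for monocyte markers, 0.63 and 0.74 for mural cell and fibroblast markers, and -4.67 and -4.63 for endothelial markers. The part of these shifts in the VCAM1 difference was not tested. JAM2 passed for JK (0.26 ± 0.11, adjusted p = 0.0366) with overlapping groups and did not for JINB8 (0.08, 95% interval -0.15 to 0.32, adjusted p = 0.471). The JINB8 value depended on the scaling: it passed as higher with median centring (0.47, adjusted p = 0.000677) and quantile normalization (0.34, adjusted p = 0.0224) and as lower with cyclic loess (-0.25, adjusted p = 0.0381). The JK call was lost without JK-treated replicate 1 or 2 or JK exosome replicate 1 or 2 (adjusted p of 0.0776 to 0.205) and turned to -0.0317 with cyclic loess (adjusted p = 0.781).

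Leukocyte counter-receptors of these molecules were read in the same comparison. Of 16 genes 11 were higher and 5 lower in exosome RNA for both lines. Over all genes 43.6% were higher and 49.2% lower for JK, and 44.2% and 48.3% for JINB8. The medians of the 16 were 0.93 and 1.00, beside -0.15 and -0.11 over all genes. With cyclic loess they were 0.51 and 0.54, beside 0.11 and 0.12. With median centring they were 1.37 and 1.38, beside 0.29 and 0.27. A higher median was not particular to counter-receptors. On the deposited values it was 1.20 in both for platelet markers and 0.98 and 1.02 for monocyte markers. It was 0.63 and 0.74 for mural cell and fibroblast markers, and -4.67 and -4.63 for endothelial markers. CD2 and ITGB7, both T cell surface proteins, stood at 1.90 ± 0.10 and 1.66 ± 0.11 for JK and at 1.97 ± 0.10 and 1.69 ± 0.11 for JINB8. ITGAM, the Mac-1 chain of monocytes and granulocytes, stood at 1.86 ± 0.09 in both. ITGB1, the beta chain of the VCAM1 receptor, which endothelial cells also make, stood at -5.86 ± 0.08 and -6.04 ± 0.08. Against untreated HUVEC, on the quantile-normalized scale, 6 of the 16 fell and 2 rose with JK exosomes (median -0.02). With JINB8 exosomes 5 fell and 3 rose (median 0.02). Over all genes 22.4% fell and 26.2% rose with JK, and 23.3% and 26.0% with JINB8 exosomes. As deposited all 16 were lower, as were nearly all genes. ITGA4, the alpha chain of the VCAM1 receptor, was among those that fell, with log2 fold changes of -3.63 ± 0.11 for JK and -3.44 ± 0.11 for JINB8 exosomes.

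Between the exosome sources none of the 8 genes passed (0 of 8 in limma, 0 with an unadjusted p under 0.05), where 0.679% of all genes did and 8.06% had an unadjusted p under 0.05. Their log2 differences, JINB8 minus JK, lay between -0.06 and 0.08, with adjusted p of 0.93 to 0.996. The 95% intervals ran from -0.14 to 0.31 for ICAM1, from -0.24 to 0.13 for SELP, and from -0.20 to 0.13 for SELE.

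**Figure D4:**
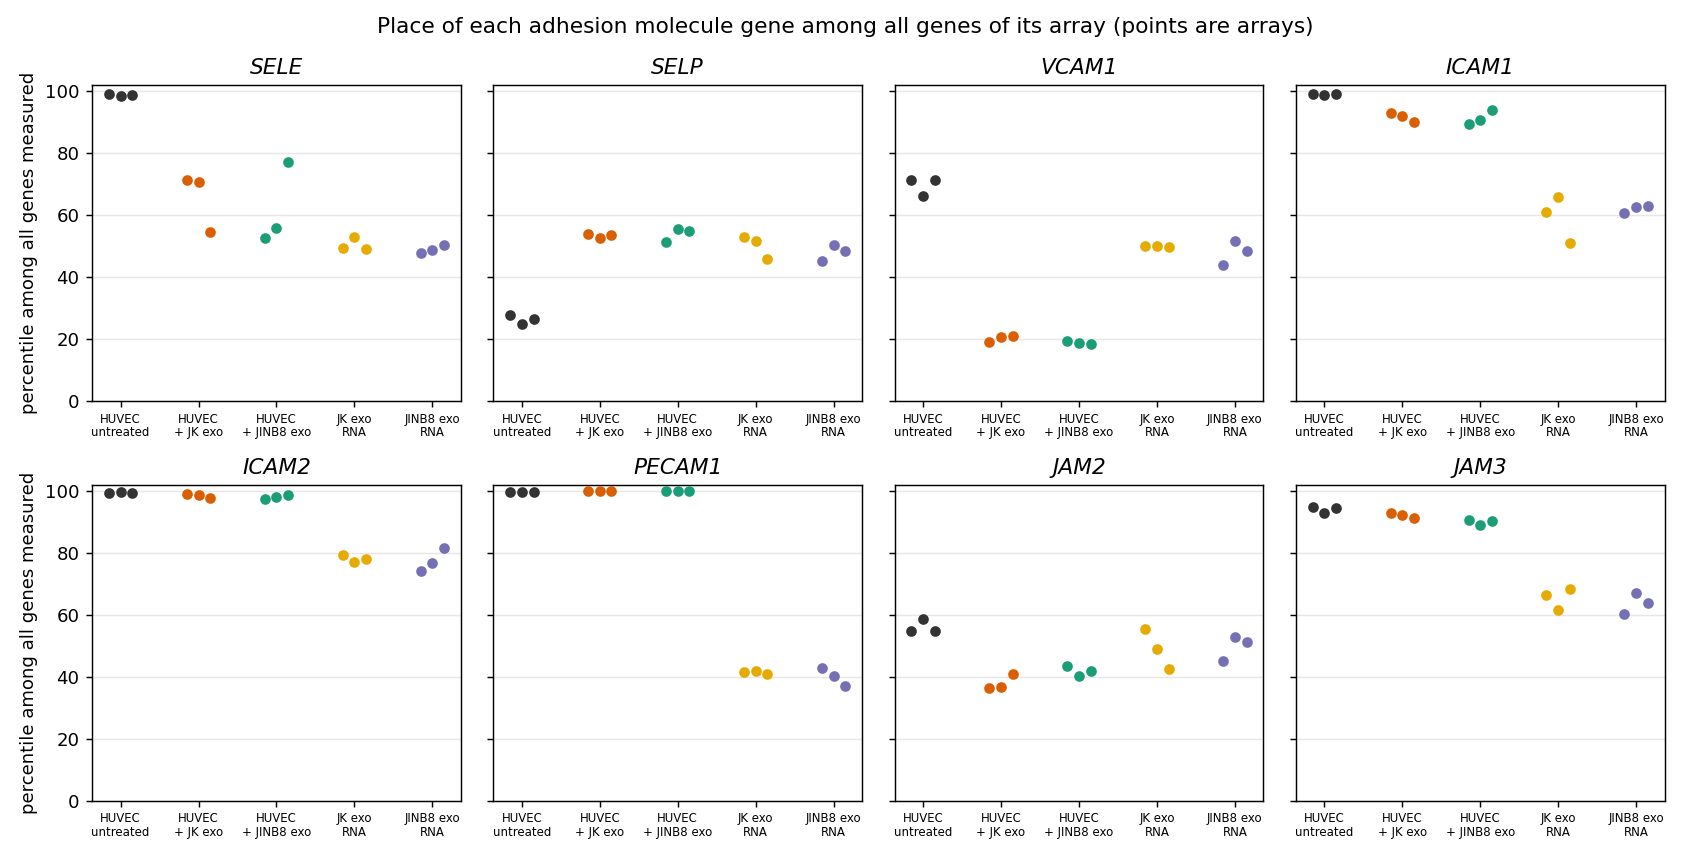
Percentile of each gene among the 18417 genes of its array (vertical axis, 100 is the highest signal) on each of 15 arrays, by group (horizontal axis). Points are arrays. SELP rises from 24.8 to 27.8 in untreated HUVEC to 51.2 to 55.5 in treated HUVEC, VCAM1 drops from 66.3 to 71.4 to 18.4 to 21.0, and PECAM1 stays at 99.6 to 99.9 on all HUVEC arrays.

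In the order of the 5 groups by deposited mean, untreated HUVEC came first for all 8 genes. That place holds the array-wide shift and is the background. As deposited 99.3% of all genes were lower with JK and 99.1% with JINB8 exosomes than in untreated cells. On the normalized scale SELP and PECAM1 were higher in treated cells. For SELE, SELP, ICAM1, ICAM2, PECAM1 and JAM3 both treated groups came next and exosome RNA last. For VCAM1 the exosome groups came before the treated cells, and for JAM2 the other 4 groups lay between 4.91 and 5.19 in mean. In no gene did the treated groups, or the exosome groups, differ from each other past the threshold.

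By Pearson correlation over the 15 arrays after quantile normalization of all of them, which mostly reflects the differences between the 5 groups and carries no test, the genes most like SELE were COL4A1 (r = 0.985), VCAN (0.984) and CD44 (0.983). Those most like VCAM1 were CYTL1 (0.993), CHRNA1 (0.991) and MAMDC2 (0.984), and those most like ICAM1 were MMD, ID1 and TOX (each 0.992). ICAM2 was most like CDK7 (0.997), CSRP1 (0.996) and MEIS1 (0.995), and JAM3 most like PPIL2, CYB5A and DHRS7 (0.994 to 0.995). PECAM1 was most like RICTOR, CDC42BPB and ITGB3 (each rounding to 1.00). SELP was most like BCO2 (0.971), VLDLR (0.966) and FER1L4 (0.964), and JAM2 most like CERS6 (0.931), FSTL5 (0.922) and UBTF (0.917). Among the 8 themselves, ICAM2 and JAM3 were most alike (0.984) and SELE and SELP most opposed (-0.87).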

How the data were processed

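Biotin labelling with a whole-transcript kit started from 300 ng of RNA, per the labels' protocols. Per the submitters' processing notes the authors used Affymetrix Expression Console, and the deposited values are log2 signals by their range. How they were normalized, and over which arrays, is not given in the sources used here, nor are detection calls. Of 33297 probesets 19460 had 1 gene symbol, 1754 several and 12083 none listed, and 18417 genes remained. R 4.3.3 and limma 3.58.1 (lmFit and eBayes) were used, p-values adjusted by Benjamini-Hochberg across 18417 genes, and calls at 0.05. The 9 HUVEC arrays entered 1 fit, exosome RNA 1 of 6 arrays, and exosome RNA against treated HUVEC 1 of 12. Tests were checked on simulated data. An exact two-sided permutation test of 3 against 3 cannot go below 0.1. Gene lists are described by counts. The rule for named genes was all 8 genes, the genes with the 4 smallest p per direction in each list, and the 3 most alike to each. Of the list genes so given the text names a part, chosen after their values were seen. The members and lists were chosen with earlier results of these data known. Some listed genes are not analysed here. Precision is limited by how few arrays there are. The alternatives tried were other scalings, filters, variance models, sample sets and probeset rules, a block, and leaving out each array.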

Additional observations from a re-analysis of the deposited data

How the results depend on the processing

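Against untreated HUVEC the values as deposited turned SELP to -0.36 with JK and -0.37 with JINB8 exosomes and PECAM1 to -0.71 and -0.69, because the array-wide shift was not removed. Median centring turned JAM3 with JK exosomes to 0.0318. In exosome RNA against treated HUVEC cyclic loess turned JAM2 to -0.0317 for JK and -0.25 for JINB8. The cause of these last changes was not tested. Over 1017 values of the 8 genes under alternatives, 984 kept their side of the threshold, 24 lost the call, 2 gained it and 7 turned, and 22 that passed under neither setting changed sign. Counts of members passing were 6 to 8 against untreated cells and in exosome RNA against cells, and 0 in both comparisons of JINB8 with JK, under all settings run. Not every member was tested under each setting. The filter for the 40% dimmest genes took VCAM1 out of the comparison of JK-treated with untreated cells. Leaving out 1 array gave 7 to 8 with JK exosomes, 8 with JINB8 exosomes, and 7 to 8 and 7 for exosome RNA. Counts over all genes moved more: from 8950 to 3378 (unadjusted p with a 1.5-fold change) and 18319 (as deposited) with JK exosomes, from 9074 to 3564 and 18286 with JINB8 exosomes, from 17082 to 10373 and 17044 to 10382 without the 40% dimmest genes, from 17082 to 28791 and 17044 to 28642 over all probesets, and from 0 to 377 with array weights for JINB8-treated against JK-treated cells. In exosome RNA 125 became 54 to 100 with 1 array left out. The replicate numbers of the labels did not pair the samples (1 of 9 same-numbered HUVEC pairs correlated over 0.1, range -0.45 to 0.35, and 2 of the 9 arrays correlated best with their own number). The replicate block gave 8 members against untreated cells (8618 and 8810 genes), 0 in both comparisons of JINB8 with JK, and 7 in both of exosome RNA with cells, where JAM2 for JK had an adjusted p = 0.0539.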

Other observations

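Enzymes that cut adhesion molecules from the cell surface, and those that build selectin ligands, were read on the same normalized scale. The shedding list also holds TIMP3, a protease inhibitor that is counted among the genes that rose. Its counts therefore do not give a direction of shedding. Of 7 shedding genes 3 rose and 1 fell with JK exosomes (median log2 fold change 0.30) and 4 rose and 1 fell with JINB8 exosomes (median 0.38), beside 26.2% higher and 22.4% lower of all genes with JK and 26.0% and 23.3% with JINB8 exosomes. With median centring 4 and 5 rose and 1 and 0 fell, beside 35.1% and 38.1% higher and 19.5% and 18.7% lower of all genes. As deposited 7 and 6 were lower, as were 99.3% and 99.1% of all genes. TIMP3, an inhibitor of such proteases, rose by 1.49 ± 0.11 and 1.89 ± 0.11, ADAM10, a sheddase, by 0.60 ± 0.08 and 0.61 ± 0.08, and NRDC, nardilysin, which enhances such cleavage, by 0.46 ± 0.08 and 0.39 ± 0.08. The membrane protease MMP14 changed by -0.88 ± 0.07 and -0.53 ± 0.07. Of 11 glycosylation genes 2 fell and 1 rose with JK and 3 fell and 1 rose with JINB8 exosomes, and as deposited all 11 were lower, as were nearly all genes. The sialyltransferase ST3GAL6 changed by -0.88 ± 0.09 and -0.99 ± 0.09, and the galactosyltransferase B4GALT1 by -0.75 ± 0.09 and -0.50 ± 0.09. All named here passed in limma in both comparisons, which share their untreated arrays.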
